A study of Rattus norvegicus with 12 samples.

Results

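Docetaxel-treated cells of an induced fibrotic culture were compared with untreated cells of the same kind, gene by gene, by RNA sequencing. Both groups are rat cells of wild type (WT) genotype with bone marrow as their source, and the labels call them fibrotic bone marrow mesenchymal stem cells, while the design text speaks of induced fibrotic chondrocytes. BF-D (3 libraries) received docetaxel and BF-C (3 libraries) is its control. All were kept in DMEM with low glucose, antibiotics and a medium that induces cartilage formation. The docetaxel dose and time, the steps that made the cells fibrotic, and whether replicates were separate cultures are not stated, so a p-value here reflects only how far these libraries scatter, which may be technical. The comparison covers the 13570 genes, of 19355 in the table, whose mean over the 6 libraries was at least 10 normalized counts, meaning reads divided by a size factor per library. They are called members below.

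Docetaxel is a taxane. It binds beta-tubulin inside assembled microtubules and stops them from disassembling, which lowers the pool of free tubulin and blocks the mitotic spindle of dividing cells. Cells are known to read the free tubulin pool and to adjust the stability of tubulin mRNA to it. In connective tissue cells, microtubules also carry secreted matrix proteins and signalling proteins, and taxanes are known to induce inflammatory genes in some cell types.

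The libraries held 15580310 to 19870047 reads. BF-D replicate 2 stood apart from the others. Its short genes read high and its long genes low. Each library's deviation was taken from the gene's median log2 value over all 6 libraries. For BF-D replicate 2 it had a Spearman rank correlation with gene length of -0.50 across genes, against 0.03 to 0.17 in the other 5 libraries. In members shorter than 1457 bases its median deviation was 0.35 on the log2 scale, and in members longer than 3583 bases it was -0.33. Genes of ribosomal proteins held 2.92% of its reads, where the other BF libraries had 1.75% to 1.88%. The counts of calls and the log2 differences of most called genes are therefore given with and without this library, and the plot of deviation by gene length shows the trend.

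**Figure D1:**
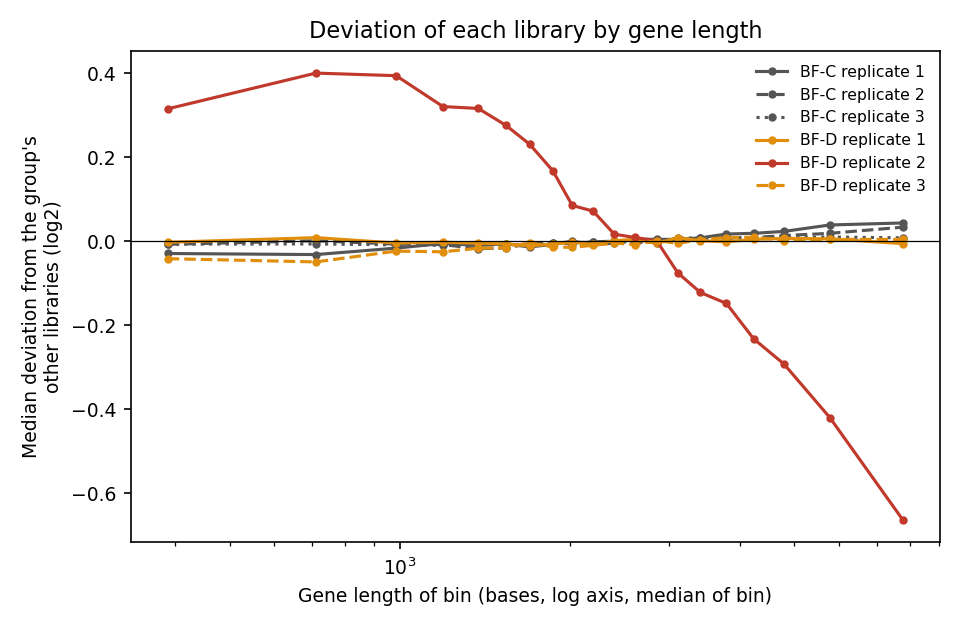
Median deviation of each library (log2, vertical axis) for bins of members ordered by gene length (bases, log axis), with 1 line per library. The deviation is from the gene's median over all 6 libraries, not from the group's other libraries as the axis label says. BF-D replicate 2 falls from 0.32 in the shortest bin to -0.66 in the longest, while the other 5 libraries stay near 0.

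The cartilage part of the name was not borne out by the levels of Col2a1 and Sox9. Col2a1, the main collagen of cartilage, had 4.24, 2.14 and 1.97 normalized counts in BF-C and 0, 3.88 and 10.5 in BF-D, against 784393, 798708 and 776715 for Col1a1, the main collagen of fibrous tissue, in BF-C. Sox9, the cartilage transcription factor, had 40.7, 44.9 and 78.7 normalized counts in BF-C and 46.8, 30.1 and 62.8 in BF-D. Acan was not among the chondrocyte markers measured. Col9a2, the chondrocyte marker with the most reads, had 489, 569 and 624 normalized counts in BF-C and 437, 516 and 435 in BF-D. The 10 measured chondrocyte markers together took 0.00362% to 0.00469% of reads in BF-C and 0.00339% to 0.00406% in BF-D, whereas the 12 measured markers of mesenchymal stem cells took 0.570% to 0.573% and 0.492% to 0.553%. In the bone marrow mesenchymal stem cell (BMSC) libraries of the same series the chondrocyte markers took less, 0.000307% to 0.000764%. The cells are therefore called BF cells below. Fewer cells of a type and less RNA per cell cannot be told apart in such bulk samples.

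Several cytokine, chemokine, matrix protease and tubulin genes rose, and several collagen genes fell, in the BF-D libraries. Without BF-D replicate 2, limma (BF-D replicates 1 and 3 against the 3 BF-C libraries, on log2 of normalized count + 1) called 243 of the 13570 members at an adjusted p under 0.05, which is 1.79% of them. Of these, 115 (0.847%) were higher and 128 (0.943%) were lower. The median gene length was 2177 bases for those called higher and 3174.5 for those called lower, against 2301 over all members. With the length trend removed, limma without BF-D replicate 2 called 250, 130 higher and 120 lower. The part of length in single calls was not tested. The changes were small: 186 of the 243 were within 1.5-fold, and only 8 higher and 16 lower members passed 2-fold. The median fold among called members was 1.32 upward and 1.30 downward, while the median log2 difference over all members was -0.01. With all 6 libraries limma called 2 members (0.0147%), Spp1 higher and AABR07052758.1 lower, both with an adjusted p of 0.043. The plot of difference by level shows the called members over the whole range of levels.

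**Figure D2:**
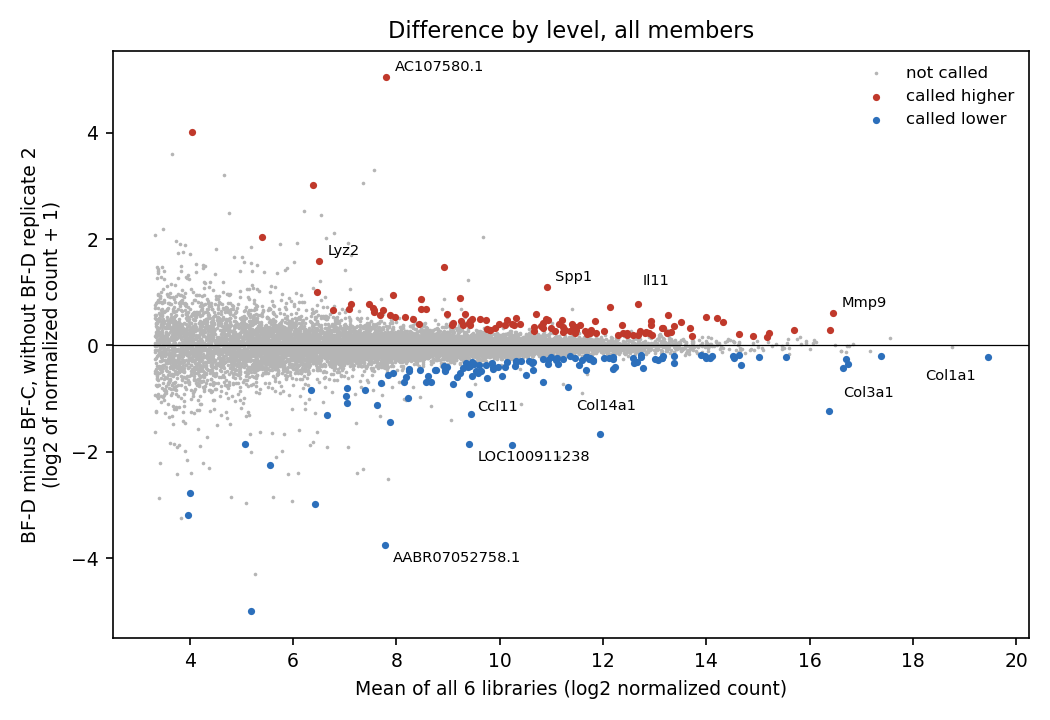
Difference between BF-D and BF-C without BF-D replicate 2 (log2 of normalized count + 1, vertical axis) against the mean of all 6 libraries (log2 normalized count, horizontal axis), 1 point per member. The 115 members called higher are red and the 128 called lower are blue, and most of them lie within 1 unit of 0.

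The count of called members rested on few libraries. Leaving out a further library gave 66 calls without BF-C replicate 1, 59 without BF-C replicate 2 and 163 without BF-C replicate 3. It gave 0 calls without BF-D replicate 1 and 1 without BF-D replicate 3, where a lone BF-D library is assumed to vary like the BF-C libraries, and 13 calls were made when no filter on low values was set. Scaling to total reads moved the split to 133 higher and 98 lower. On recovered reads, edgeR without BF-D replicate 2 shared 237 of the 243 calls and DESeq2 shared 231.

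BF-D replicate 2 was set beside the called members. In 90 of the 115 higher members all 3 BF-D libraries lay above all 3 BF-C libraries, where 8.35% of all members did, and in 104 of the 128 lower members all 3 lay below, where 10.1% did. The members were chosen for the difference of BF-D replicates 1 and 3 from the same BF-C libraries, which largely fixes these counts, so nothing is read from them. With BF-D replicate 2 included, 1 called member changed sign: Inhba, the beta A chain of activin, had 2404, 2291 and 2425 normalized counts in BF-C and 3047, 1264 and 3011 in BF-D. Its log2 difference was 0.35 without and -0.07 with that library, as the plot of called members with and without it shows. When the trend with gene length was removed from each library, limma on all 6 called 7 members higher and 4 lower, all 11 among the 243. With weights for library quality, where BF-D replicate 2 received 0.12 against 0.93 to 2.0 for the others, it called 72 higher and 51 lower, of which 121 were among the 243.

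**Figure D3:**
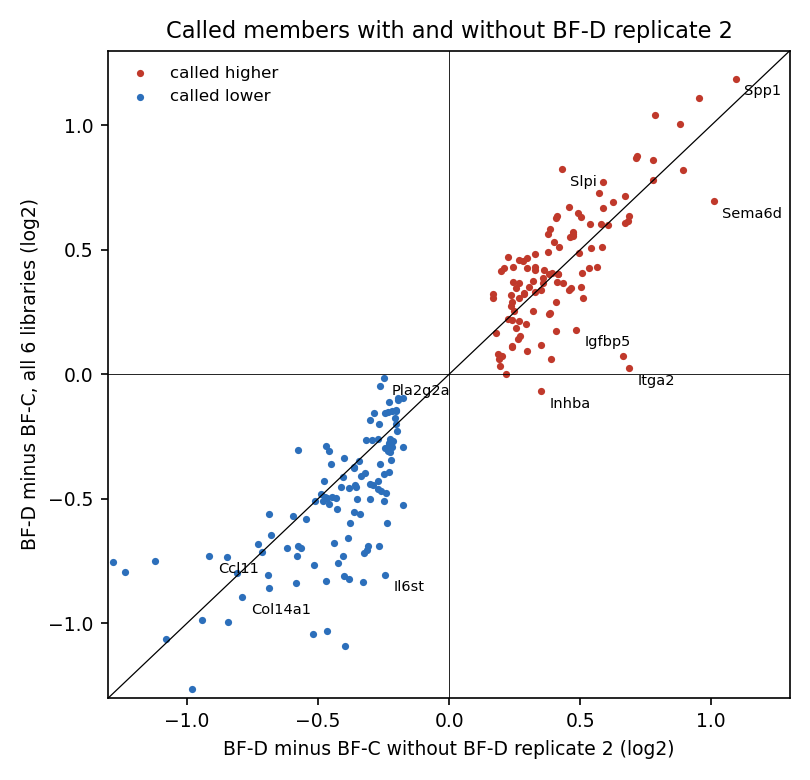
Log2 difference between BF-D and BF-C in all 6 libraries (vertical axis) against that without BF-D replicate 2 (horizontal axis) for 225 called members, with the line of equality; 18 further called members lie outside the axes at 1.3. Inhba is the called member that crosses 0.

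Values per library are given below in normalized counts and in the order of replicates 1, 2 and 3. A log2 difference is BF-D minus BF-C on log2(normalized count + 1) without BF-D replicate 2 unless stated, and for called genes the words "all 6" in brackets introduce the log2 difference with that library included, which passed limma's threshold only in Spp1 and AABR07052758.1. The plot of called members per gene list gives the counts for each group of genes described. For comparison, limma without BF-D replicate 2 called 0.847% of all members higher and 0.943% lower. Before adjustment, 5.85% of all members rose and 7.39% fell with p under 0.05. Calls were more frequent at high levels: of 3005 members with a mean of at least 1000, 73 were called higher and 73 lower. The lists were not matched to members of similar level, so whether a list exceeds such members was not tested.

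**Figure D4:**
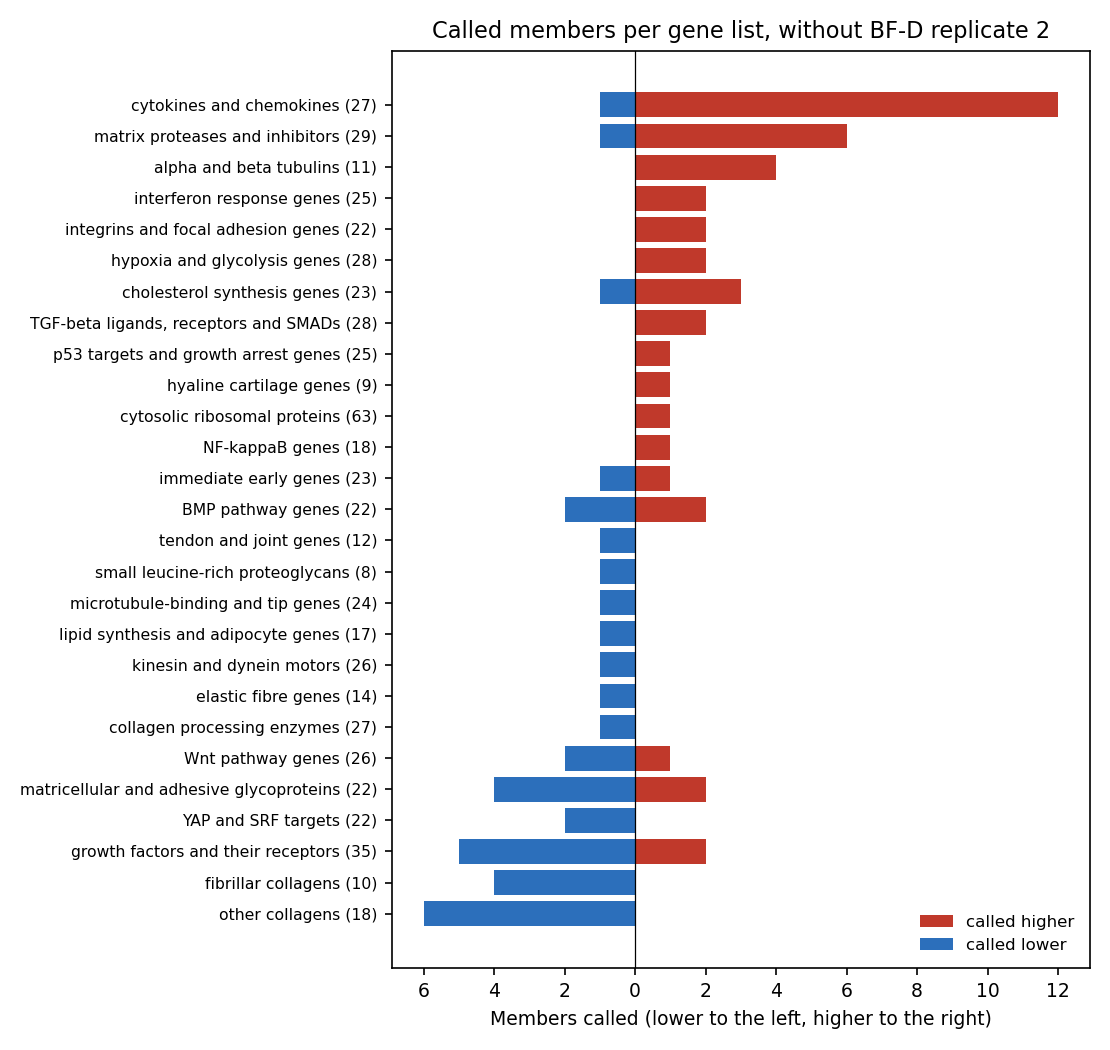
Number of members called higher (red, to the right) and lower (blue, to the left) without BF-D replicate 2, for each functional gene list with at least 1 called member; the number of members of each list stands in brackets. Cytokines and chemokines have 12 called higher and 1 lower, and the other collagens have 6 called lower.

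Spp1, the gene of osteopontin, a secreted phosphoprotein that binds integrins and mineral, was the member called higher in both fits. It had 1115, 1161 and 1249.7 normalized counts in BF-C and 2432, 3046 and 2584 in BF-D. All 3 BF-D libraries lay above all 3 BF-C libraries, by a log2 difference of 1.09 (standard error 0.06, limma adjusted p = 1.9e-05, all 6 1.19).

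Among cytokines, chemokines and prostaglandin enzymes, 12 of 27 members rose and 1 fell, and the list's median log2 difference was 0.30 against -0.01 for all members. Il11, a cytokine of the interleukin 6 family that acts on fibroblasts, had 4515, 4564 and 4882 normalized counts in BF-C and 7675, 9434 and 8295 in BF-D, a log2 difference of 0.78 (standard error 0.05, limma adjusted p = 2e-05, all 6 0.86). Cxcl2, which attracts neutrophils, had 3179.6, 3040.3 and 3242 in BF-C and 5051, 7235 and 5309 in BF-D, a difference of 0.72 (standard error 0.04, limma adjusted p = 2e-05, all 6 0.88). For these genes the BF-D libraries did not overlap BF-C, and BF-D replicate 2 was the highest of all. Il11 is 1691 bases long and Cxcl2 1072, and BF-D replicate 2 reads short genes high. The list's median log2 difference was 0.38 with all 6 libraries and 0.29 with the length trend removed from them.

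Csf3, the granulocyte colony-stimulating factor, had 7455, 7067 and 7286 normalized counts in BF-C and 10403, 15044 and 11196 in BF-D, a log2 difference of 0.57 (adjusted p = 7.3e-05, all 6 0.73). Ptgs2, the inducible cyclooxygenase, had 16632, 15532 and 16319 in BF-C and 23143, 18675 and 22791 in BF-D, a difference of 0.51 (adjusted p = 7.3e-05, all 6 0.41). Ptges, which turns its product into prostaglandin E2, had 6514, 6489 and 6438 in BF-C and 8498, 10615 and 8349 in BF-D, a difference of 0.38 (adjusted p = 0.00029, all 6 0.49). These genes thus rose in each BF-D library, although in Ptgs2 replicate 2 was the lowest of the 3. The other members that rose were Ccl3 (0.71, all 6 0.87), Csf2 (0.41, all 6 0.63), the interleukin 33 receptor Il1rl1 (0.38, all 6 0.40), Lif (0.35, all 6 0.12), Cxcl1 (0.30, all 6 0.47), Cxcl16 (0.26, all 6 0.35) and Ccl2 (0.17, all 6 0.31). Lif, another ligand of the interleukin 6 family, had 2764, 2579 and 2794 normalized counts in BF-C and 3369.7, 2125 and 3546 in BF-D, so that BF-D replicate 2 lay below BF-C.

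The member that fell was Cxcl12, the stromal chemokine that holds blood stem cells in the marrow, with 29299, 29819 and 29083 normalized counts in BF-C and 23935, 22353 and 21788 in BF-D and a log2 difference of -0.36 (adjusted p = 0.0012, all 6 -0.37). Il6 had 3262, 3357 and 3204 normalized counts in BF-C and 3691, 4773 and 3365 in BF-D and a difference of 0.11 with a 95% interval of -0.00 to 0.21 (adjusted p = 0.43), and Ccl7 and Cxcl6 differed by -0.04 and -0.01 (adjusted p = 0.83 and 0.97). Il1b, the inflammasome cytokine, was low, with 11.9, 9.61 and 15.7 normalized counts in BF-C and 37.3, 55.3 and 44.0 in BF-D, and its difference of 1.66 did not pass (adjusted p = 0.055). On all 6 libraries DESeq2 called 6 of the list higher and 1 lower, limma with the length trend removed called 4 higher, and limma and edgeR on the values as they stand called none.

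Outside the list, Il23a, the p19 chain of interleukin 23, had 159, 172 and 133 normalized counts in BF-C and 266, 413 and 335 in BF-D, a difference of 0.95 (adjusted p = 0.0076, all 6 1.11), while Ccl11, the eotaxin that attracts eosinophils, fell from 907, 831 and 786 in BF-C to 483, 653 and 409.5 in BF-D, a difference of -0.91 (adjusted p = 0.00041, all 6 -0.73). Both sets of libraries were separate.

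NF-kappaB and AP-1 are factors known to act at promoters of chemokine and cytokine genes, and the promoters of called members of the list that hold a pattern of either are shown. They run from 250 bases before to 50 bases after the start in RefSeq (GRCr8), 5′ to 3′ on the gene's strand, with capitals marking a match on either strand to GGG, then any 2 bases, then TTTCC, the NF-kappaB pattern, or TGANTCA, the AP-1 pattern. The NF-kappaB pattern is in 1.51% and the AP-1 pattern in 7.33% of all 27457 promoters of that table, and in 1.67% and 4.86% of the 9697 promoters matched to members.
Cxcl2, chr14:17467206-17467505, minus strand: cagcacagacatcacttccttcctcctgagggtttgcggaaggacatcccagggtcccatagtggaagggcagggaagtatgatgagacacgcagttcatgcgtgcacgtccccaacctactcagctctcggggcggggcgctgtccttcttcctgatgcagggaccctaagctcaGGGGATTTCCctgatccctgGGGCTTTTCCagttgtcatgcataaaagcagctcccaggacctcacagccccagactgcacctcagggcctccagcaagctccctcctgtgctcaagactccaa
Cxcl1, chr14:17479272-17479571, minus strand: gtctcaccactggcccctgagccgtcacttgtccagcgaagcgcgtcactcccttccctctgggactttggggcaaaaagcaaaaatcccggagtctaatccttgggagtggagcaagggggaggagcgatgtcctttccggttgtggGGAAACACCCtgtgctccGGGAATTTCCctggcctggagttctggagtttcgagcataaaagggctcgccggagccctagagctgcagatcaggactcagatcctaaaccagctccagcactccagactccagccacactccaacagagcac
Il11, chr1:78098372-78098671, plus strand: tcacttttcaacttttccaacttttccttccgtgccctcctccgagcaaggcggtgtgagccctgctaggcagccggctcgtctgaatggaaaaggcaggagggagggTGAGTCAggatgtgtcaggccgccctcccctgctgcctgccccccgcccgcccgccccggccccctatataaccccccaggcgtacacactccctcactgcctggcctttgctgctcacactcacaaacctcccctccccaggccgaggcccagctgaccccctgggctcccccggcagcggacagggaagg
Cxcl2 has the NF-kappaB pattern beginning 74 and 54 bases before its start, Cxcl1 102 and 84 bases before, and Il11 has the AP-1 pattern beginning 142 bases before. Of the 12 members of the list that rose, 8 had a promoter in the table, and those of Il1rl1, Cxcl16, Csf2, Ptgs2 and Ptges hold neither pattern. The promoter of Cxcl12, which fell, holds neither pattern. A match describes the letters of the window only. Of the 112 symbols called higher 84 had a promoter in the table, and of the 123 called lower 85 did, which is under 80%, so a check of pattern shares over the called members is void and is not given.

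Matrix proteases and their inhibitors showed 6 of 29 members higher and 1 lower. Mmp9, a gelatinase, had 71312, 69894 and 72533 normalized counts in BF-C and 105103, 106851 and 111915 in BF-D, a log2 difference of 0.61 (standard error 0.04, limma adjusted p = 2e-05, all 6 0.60). Mmp13, the main collagenase of cartilage breakdown, had 12972, 12397 and 13488 in BF-C and 19064, 21556 and 18568 in BF-D, a difference of 0.54 (standard error 0.04, limma adjusted p = 7.3e-05, all 6 0.60). Mmp3, or stromelysin 1, had 74159.9, 71879.9 and 72474 in BF-C and 91163, 116833 and 87983 in BF-D, a difference of 0.30 (standard error 0.03, limma adjusted p = 0.0011, all 6 0.43). In each of these proteases the 3 BF-D libraries lay above the 3 BF-C libraries.

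Mmp12, the elastase best known from macrophages, had 220.3, 233 and 254 normalized counts in BF-C and 411, 562 and 458 in BF-D, a difference of 0.88 (standard error 0.10, limma adjusted p = 0.0014, all 6 1.00), and its groups were separate as well. The protease inhibitor Serpine2 (0.33, all 6 0.42) and Adamts7 (0.26, all 6 0.14), which cleaves the cartilage protein COMP, also rose, the latter with BF-D replicate 2 below BF-C. Adamts5, the main aggrecan-cleaving protease, fell from 5956, 6107 and 5747 to 4582, 2288 and 4378 normalized counts, a difference of -0.41 (standard error 0.04, limma adjusted p = 0.00055, all 6 -0.73). Mmp2 differed by 0.02 with a 95% interval of -0.05 to 0.10, Mmp14 by -0.05 with -0.12 to 0.03, and the inhibitor Timp1 by -0.13 with -0.22 to -0.04, with limma adjusted p-values of 0.86, 0.66 and 0.20. On all 6 libraries limma called 2 of the list higher with the length trend removed and 5 with library weights, DESeq2 called 3, and limma and edgeR on the values as they stand called none.

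AP-1 is known to act at metalloproteinase promoters, and those of the called members that hold its pattern are shown, with the window, build and capitals as above.
Mmp13, chr8:12782579-12782878, plus strand: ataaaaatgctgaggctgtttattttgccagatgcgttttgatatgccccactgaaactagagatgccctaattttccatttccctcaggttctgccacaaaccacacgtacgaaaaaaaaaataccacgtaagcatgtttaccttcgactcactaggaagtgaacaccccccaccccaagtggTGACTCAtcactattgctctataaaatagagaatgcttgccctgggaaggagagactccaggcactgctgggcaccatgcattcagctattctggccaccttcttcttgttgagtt
Mmp3, chr8:12925031-12925330, plus strand: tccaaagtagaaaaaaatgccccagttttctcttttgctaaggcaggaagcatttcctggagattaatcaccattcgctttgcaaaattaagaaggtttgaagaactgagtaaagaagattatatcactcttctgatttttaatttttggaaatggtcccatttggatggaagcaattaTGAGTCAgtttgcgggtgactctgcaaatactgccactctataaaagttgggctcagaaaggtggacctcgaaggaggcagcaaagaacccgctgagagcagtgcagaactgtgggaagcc
Mmp12, chr8:12866402-12866701, plus strand: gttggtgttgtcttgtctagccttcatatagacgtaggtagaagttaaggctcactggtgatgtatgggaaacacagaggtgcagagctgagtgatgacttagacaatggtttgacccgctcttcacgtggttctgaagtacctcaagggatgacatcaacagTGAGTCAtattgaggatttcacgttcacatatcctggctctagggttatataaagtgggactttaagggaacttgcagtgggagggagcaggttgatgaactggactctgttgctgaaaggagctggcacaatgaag
The pattern begins 66 bases before the start in Mmp13, 71 in Mmp3 and 87 in Mmp12, each a single match. The promoters of Adamts7 and Serpine2 hold neither pattern, and Mmp9 and Adamts5 had no promoter matched. The patterns are not confined to genes that rose. Among called genes that fell, Col6a1 and Pdgfra hold the AP-1 pattern, and Steap4 and Tnn hold the NF-kappaB pattern.

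Several of the genes named so far are also macrophage genes, and the summed reads of macrophage markers were scarce but higher in BF-D, though not for every marker. The 13 measured macrophage markers together took 0.00427% to 0.00444% of reads in the BF-C libraries and 0.00598% to 0.00658% in the BF-D libraries, and they took 0.904% to 1.43% in the BMSC libraries of the same series. Of 9 that are members, 2 rose and 0 fell. Lyz2, a lysozyme, had 49.1, 45.9 and 40.3 normalized counts in BF-C and 109.6, 128 and 171 in BF-D, a log2 difference of 1.58 (standard error 0.23, limma adjusted p = 0.006, all 6 1.55), and Cd68 had 105, 91.8 and 112 in BF-C and 183, 177 and 171 in BF-D, a difference of 0.78 (standard error 0.15, limma adjusted p = 0.027, all 6 0.78). Laptm5 differed by 1.80 (adjusted p = 0.053), Adgre1 by 0.48 (adjusted p = 0.13) and Csf1r by -0.07 (adjusted p = 0.97). Cd14, the marker with the most reads in BF-C, had 311, 352 and 297 normalized counts in BF-C and 294, 399 and 286 in BF-D. Fcer1g, Cd74, Itgam and Aif1, at lower counts, also had overlapping groups. Mrc1 was at 0 in all 3 BF-C libraries and had 2 to 11 reads in BF-D, and Ptprc, the leukocyte marker, had 0 to 9 reads per library. Itgb2, the common chain of leukocyte integrins, was named after its values were seen, and had 20.3, 11.7 and 21.6 normalized counts in BF-C and 57.5, 45.6 and 96.4 in BF-D. The part of these cells in the differences of Spp1, Mmp9, Mmp12, Il1b, Ccl3 and the other inflammatory genes was not tested.

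Among fibrillar collagens 4 of 10 members fell, 0 rose and 6 did not pass, with 3 of the 10 values above 0. Col1a1 had 784393, 798708 and 776715 normalized counts in BF-C and 667976, 580123 and 685457 in BF-D, a log2 difference of -0.22 (standard error 0.04, limma adjusted p = 0.011, all 6 -0.29). Col3a1, its partner in healing and scar tissue, had 122848, 121065 and 122319 in BF-C and 99112, 95710.0 and 93207 in BF-D, a difference of -0.34 (standard error 0.04, limma adjusted p = 0.00055, all 6 -0.35). Each BF-D library lay below each BF-C library for both genes.

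Col5a1 and Col11a1 encode chains that set the width of collagen fibrils. Col5a1 had 19892, 19865 and 19867 normalized counts in BF-C and 16458, 10274 and 17221 in BF-D, a difference of -0.24 (adjusted p = 0.0048, all 6 -0.48), and Col11a1 had 7982, 8426 and 8276 in BF-C and 6476, 5314 and 5745 in BF-D, a difference of -0.43 (adjusted p = 0.0014, all 6 -0.50). Col1a2, the second chain of type I collagen, varied widely between libraries, with 49993, 64952 and 38615 normalized counts in BF-C and 36011, 23943 and 82366 in BF-D, and did not pass (log2 difference 0.12, 95% interval -0.48 to 0.73, adjusted p = 0.92). At an unadjusted p under 0.05, 6 members were lower and 0 higher, where 7.39% of all members were lower and 5.85% higher.

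Of 18 other collagens 6 fell and 0 rose by limma. In the same libraries, without BF-D replicate 2, edgeR called 5 lower and 1 higher, and DESeq2 called 7 lower and 1 higher. Col14a1, which sits on the surface of collagen fibrils, had 3320.2, 3469.6 and 3146 normalized counts in BF-C and 2035, 1533 and 1802 in BF-D, a log2 difference of -0.79 (standard error 0.06, limma adjusted p = 7.4e-05, all 6 -0.90). The chains of collagen VI, which forms beaded filaments around cells, were among those that fell, Col6a1 (-0.22, all 6 -0.34), Col6a2 (-0.23, all 6 -0.28) and Col6a3 (-0.52, all 6 -0.76). Col8a2 (-0.21, all 6 -0.27) and Col18a1 (-0.23, all 6 -0.31) fell as well. The basement membrane chain Col4a1 differed by 0.04 (95% interval -0.03 to 0.11), Col4a2 by -0.05 (95% interval -0.13 to 0.02) and Col12a1 by -0.11 (adjusted p = 0.21), while Col7a1 was at 491, 548 and 548 normalized counts in BF-C and 652, 731 and 907 in BF-D and missed the threshold (0.54, adjusted p = 0.052). With the length trend removed limma on all 6 libraries called 1 of these 18 collagens lower, and with library weights it called 1 of them and 2 fibrillar collagens lower. On all 6 libraries with no removal DESeq2 called 2 fibrillar and 1 other collagen lower, and limma and edgeR called none of them. BF-D replicate 2, which reads long genes low, was lower than both other BF-D libraries in every called collagen of these lists except Col3a1.

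Of 27 collagen processing enzymes 1 fell and 0 rose. Serpinh1, the collagen chaperone HSP47, had 23493, 24379 and 24432 normalized counts in BF-C and 21342, 25818 and 20810.3 in BF-D, a log2 difference of -0.19 (adjusted p = 0.017, all 6 -0.10), with BF-D replicate 2 above BF-C. Lox, which crosslinks collagen, differed by -0.16 (adjusted p = 0.071). At an unadjusted p under 0.05, 9 of the list were lower and 0 higher.

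Matricellular and adhesive glycoproteins split, with 2 of 22 higher and 4 lower. Beside Spp1, Nov, also called CCN3, rose, from 9049, 9403 and 9398 to 10848, 11178 and 11185 normalized counts, a log2 difference of 0.25 (adjusted p = 0.0061, all 6 0.25). Wisp2, or CCN5, of the same family, fell from 2269.7, 2207 and 2061 to 1374, 1759 and 1330.1, a difference of -0.69 (standard error 0.05, limma adjusted p = 7.9e-05, all 6 -0.56). Ctgf, the family member given to other cells of this study, had 10779.9, 10473 and 11147 in BF-C and 10528, 13301 and 10546 in BF-D, a difference of -0.04 with a 95% interval of -0.12 to 0.05 (adjusted p = 0.79).

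Sparc, a collagen-binding protein of bone and scar, had 185975, 186032 and 182023 normalized counts in BF-C and 160752, 150564 and 161464 in BF-D, a log2 difference of -0.20 (adjusted p = 0.011, all 6 -0.23). Thbs2 had 122879, 121260.0 and 115066 in BF-C and 101716, 81336 and 97599.8 in BF-D, a difference of -0.26 (adjusted p = 0.0056, all 6 -0.36), and Fbln1 had 835, 779.6 and 709 in BF-C and 623, 532 and 541 in BF-D, a difference of -0.41 (adjusted p = 0.043, all 6 -0.45). Fn1, the gene of fibronectin, differed by -0.03 (95% interval -0.11 to 0.06) and Postn by -0.10 (95% interval -0.19 to -0.00). Among 8 small leucine-rich proteoglycans, which bind collagen fibrils, 1 fell and 0 rose: Fmod, or fibromodulin, had 7067, 7034 and 7119.7 normalized counts in BF-C and 5861, 4817 and 5351 in BF-D, a difference of -0.34 (adjusted p = 0.0029, all 6 -0.41). Dcn, or decorin, differed by 0.07 (95% interval -0.02 to 0.16).

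Of 14 elastic fibre genes 1 fell, Emilin1 (-0.20, adjusted p = 0.014, all 6 -0.20), and of 12 tendon and joint genes 1 fell, Osr1 (-0.46, adjusted p = 0.011, all 6 -0.52), with 0 higher in either. Of 9 hyaline cartilage genes 1 rose and 0 fell: Prg4, the gene of the joint lubricant lubricin, had 5100.2, 5089 and 5265 normalized counts in BF-C and 6335, 4686 and 5835 in BF-D, a difference of 0.24 (adjusted p = 0.021, all 6 0.11), with BF-D replicate 2 below BF-C. For 10 genes of hypertrophic cartilage and bone limma called 0, as did edgeR and DESeq2, with 0 at an unadjusted p under 0.05. Tnn, a tenascin of bone and tendon that was named after its values were seen, had 120578, 123117 and 119107 normalized counts in BF-C and 93017, 70851 and 86941 in BF-D, a difference of -0.43 (adjusted p = 0.00022, all 6 -0.54).

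Docetaxel binds the product of the beta-tubulin genes. Of 11 alpha and beta tubulins that are members, 4 rose, 0 fell and 7 did not pass, and the median log2 difference was 0.28 without BF-D replicate 2 and 0.45 with it. At an unadjusted p under 0.05, 8 were higher and 0 lower. Tuba1a, a common alpha-tubulin, had 3996, 4338 and 4252 normalized counts in BF-C and 5619.7, 8322 and 5328 in BF-D, a difference of 0.38 (standard error 0.05, limma adjusted p = 0.0017, all 6 0.59). Tubb3, the beta-tubulin whose level is known to vary with taxane resistance, had 658, 704 and 699 in BF-C and 972, 1176 and 935 in BF-D, a difference of 0.47 (standard error 0.06, limma adjusted p = 0.0037, all 6 0.57). Tubb5, the main beta-tubulin of most cells, had 8659, 8719 and 8464 in BF-C and 10094, 12027 and 10219 in BF-D, a difference of 0.24 (standard error 0.03, limma adjusted p = 0.0059, all 6 0.32).

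Tuba1b had 2469.6, 2427 and 2232 normalized counts in BF-C and 2957, 4139.6 and 2812 in BF-D, a difference of 0.28 (standard error 0.05, limma adjusted p = 0.025, all 6 0.45). In all 4 the BF-D libraries lay above BF-C, and BF-D replicate 2 was the highest. These genes are 1608 to 2156 bases long. With the length trend removed from all 6 libraries, the list's median log2 difference was 0.39, against 0.45 with the trend left in. The part of length in the values of replicate 2 was not tested for single genes. On all 6 libraries DESeq2 called 1 of the list and limma with library weights called 2, while limma, with or without the length trend removed, and edgeR called none. Per kilobase of gene length, the mean level in BF-C was 3995 normalized counts for Tubb5, 2594 for Tuba1a, 1478 for Tuba1b and 384 for Tubb3, and in BF-D, over the 3 libraries, 5000.0, 3972, 2054 and 575. Tubb4b, Tubb6 and Tuba4a differed by 0.24, 0.17 and 0.28 with separate groups, but did not pass (adjusted p = 0.10, 0.12 and 0.10). Tubb2a had overlapping groups and a difference of -0.06 (95% interval -0.37 to 0.25). Tubulin genes are close copies of each other, and how reads shared by copies were counted is not given in the sources used here.

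Other microtubule genes were mostly not called. Of 24 genes for microtubule-binding and tip proteins 1 fell and 0 rose, Mid1, which anchors a phosphatase to microtubules, with 1040.4, 1122 and 1006 normalized counts in BF-C and 886, 723 and 804 in BF-D and a log2 difference of -0.32 (adjusted p = 0.045, all 6 -0.40). Of 26 kinesin and dynein motors 1 fell and 0 rose, the dynein chain Dync1i1, with 265, 249 and 259.6 in BF-C and 137, 156 and 179 in BF-D and a difference of -0.71 (adjusted p = 0.02, all 6 -0.72). Map4, the broadly expressed microtubule-stabilizing protein, differed by 0.04 (95% interval -0.04 to 0.12), the destabilizer Stmn1 by 0.00 (95% interval -0.27 to 0.27) and Arhgef2, a signalling protein released from microtubules, by 0.04 (95% interval -0.07 to 0.14).

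Limma called 0 of 12 gamma-tubulin and minus-end genes, 0 of 11 destabilizing and severing proteins and 0 of 18 tubulin-modifying enzymes and folding cofactors, and edgeR and DESeq2 without BF-D replicate 2 also called 0 of these. At an unadjusted p under 0.05 the counts were 0, 1 and 1 higher and 0, 0 and 0 lower.

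Taxanes block cell division, and the lists of its genes had 0 calls. With 1.79% of all members called, that is near the share over all genes for lists of this size, so nothing is read from it. Of 29 mitotic kinesins and spindle genes limma, edgeR and DESeq2 called 0 each. Before adjustment 0 passed upward and 1 downward at p under 0.05. The median log2 difference was -0.11, with 9 values above 0 and 20 below. Mki67, a mark of cycling cells, differed by -0.18 (95% interval -0.52 to 0.16), and Kif20a had 226, 232 and 192 normalized counts in BF-C and 161, 186 and 149.8 in BF-D, a difference of -0.47 (adjusted p = 0.13, all 6 -0.39). Of 25 DNA replication genes the same tools called 0 each, with 1 higher and 2 lower unadjusted. Their median log2 difference was -0.11, with 8 values above 0 and 17 below. Ccnd1, the G1 cyclin, was named after its values were seen and rose, with 3147, 3136 and 3413 normalized counts in BF-C and 4447, 3461 and 4427 in BF-D and a difference of 0.46 (adjusted p = 0.00055, all 6 0.34).

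Of 25 p53 targets and growth arrest genes 1 rose and 0 fell. Gdf15, a stress cytokine, had 1235, 1143 and 1291 normalized counts in BF-C and 1806, 2695 and 1867 in BF-D, a log2 difference of 0.59 (standard error 0.06, limma adjusted p = 0.00055, all 6 0.77), with separate groups. Cdkn1a, the p21 inhibitor of the cell cycle, differed by 0.04 with a 95% interval of -0.06 to 0.13 (adjusted p = 0.81). Of 18 apoptosis regulators limma, edgeR and DESeq2 called 0, with 3 higher and 0 lower unadjusted. Of 5 taxane transport and metabolism genes limma and edgeR called 0 and DESeq2 1 lower, with 1 higher and 1 lower unadjusted; the efflux pump Abcb1a had 5697, 5791 and 5461 normalized counts in BF-C and 6212, 4924 and 5981 in BF-D, a difference of 0.11 (95% interval 0.02 to 0.20).

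Among 28 TGF-beta ligands, receptors and SMADs 2 rose and 0 fell. Tgfb3 had 887, 941 and 907 normalized counts in BF-C and 1223, 1499 and 1311 in BF-D, a log2 difference of 0.47 (standard error 0.06, limma adjusted p = 0.0023, all 6 0.56), with all BF-D libraries above BF-C, and Inhba, described above, is the other. Tgfb1, the ligand used in the study, had 2206, 2299 and 2363 in BF-C and 2608, 2699.6 and 2505 in BF-D, a difference of 0.16 (adjusted p = 0.18).

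Among 22 BMP pathway genes 2 rose and 2 fell. Bmp2, a bone-inducing ligand, had 1469.9, 1434 and 1419 normalized counts in BF-C and 1834, 1796 and 1837 in BF-D, a log2 difference of 0.35 (adjusted p = 0.0042, all 6 0.34). The receptor Bmpr2 (-0.33, all 6 -0.83) and the antagonist Chrdl1 (-0.32, all 6 -0.72) fell. Mstn, or myostatin, was named after its values were seen and differed by 0.58 (adjusted p = 0.024, all 6 0.60).

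Growth factors and their receptors had 2 of 35 higher and 5 lower. Igf1, a growth and matrix-building factor, had 1384, 1309 and 1248 normalized counts in BF-C and 945, 639 and 817 in BF-D, a log2 difference of -0.58 (standard error 0.07, limma adjusted p = 0.0023, all 6 -0.73), and Fgf1 had 487, 519 and 495 in BF-C and 301, 335 and 323 in BF-D, a difference of -0.68 (standard error 0.08, limma adjusted p = 0.0016, all 6 -0.65). Both fell in every BF-D library. Pdgfra, a receptor of fibroblast precursors, had 17292, 16564 and 16487 in BF-C and 15188, 11717 and 14497 in BF-D, a difference of -0.18 (adjusted p = 0.043, all 6 -0.29), and Gas6 (-0.19, all 6 -0.10) and Igfbp4 (-0.22, all 6 -0.15) fell as well. In Gas6 BF-D replicate 2 lay above all BF-C libraries, and in Igfbp4 among them. Bdnf, a neurotrophin, rose, with 484, 491 and 511 in BF-C and 676, 820.3 and 690.2 in BF-D and a difference of 0.46 (adjusted p = 0.0063, all 6 0.55). Igfbp5 had 2209, 2127 and 2148 in BF-C and 3064, 1600.0 and 2990.1 in BF-D, a difference of 0.49 (adjusted p = 0.00026, all 6 0.18), with BF-D replicate 2 below BF-C.

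Of 26 Wnt pathway genes 1 rose and 2 fell. The secreted inhibitors Sfrp1 (-0.23, all 6 -0.30) and Sfrp4 (-0.20, all 6 -0.14) fell and the intracellular inhibitor Nkd2 (0.42, all 6 0.40) rose. Of 22 YAP and SRF targets 2 fell and 0 rose, Amotl2 (-0.23, all 6 -0.28) and Ptpn14 (-0.38, all 6 -0.82), both of which restrain YAP.

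Of 24 contractile genes of the myofibroblast limma and edgeR called 0 and DESeq2 2 higher. Before adjustment 6 passed upward and 1 downward. Acta2, the smooth muscle actin of myofibroblasts, had 6557, 7456 and 7391 normalized counts in BF-C and 7546, 14615 and 9015 in BF-D, a log2 difference of 0.21 (95% interval 0.05 to 0.37, adjusted p = 0.25). Its highest value was that of BF-D replicate 2. Of 22 integrins and focal adhesion genes 2 rose and 0 fell, and in both BF-D replicate 2 did not follow. Itga2, a collagen receptor chain, had 124, 111 and 137 normalized counts in BF-C and 187, 49.5 and 212 in BF-D (0.69, all 6 0.02). Itga8 had 723, 641 and 704 in BF-C and 996, 709.8 and 954 in BF-D (0.50, all 6 0.35). Cd44, the hyaluronan receptor and a marker of mesenchymal cells, had 6654, 6924 and 7024 in BF-C and 8211, 7065 and 8184 in BF-D, a difference of 0.26 (adjusted p = 0.0061, all 6 0.18).

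Of 25 interferon response genes 2 rose and 0 fell, while 23 did not pass, and the median log2 difference was 0.24. At an unadjusted p under 0.05, 13 were higher and 0 lower. Irf7, a transcription factor of that response, had 1328, 1617 and 1795 normalized counts in BF-C and 2121, 2625 and 2229.8 in BF-D, a difference of 0.47 (adjusted p = 0.042, all 6 0.56). Tap1, a peptide transporter for antigen presentation, had 725, 769 and 781 in BF-C and 963, 1034 and 910.1 in BF-D, a difference of 0.30 (adjusted p = 0.042, all 6 0.35). For both the groups were separate, but BF-C itself spread from 1328 to 1795 normalized counts for Irf7.

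Of 18 NF-kappaB genes 1 rose and 0 fell, Traf1, at 244, 254 and 247 normalized counts in BF-C and 385, 462 and 322 in BF-D and a log2 difference of 0.50 (adjusted p = 0.042, all 6 0.63). Of 23 immediate early genes 1 rose, Ier3, at 6179.6, 5719 and 6024 in BF-C and 8083, 12757 and 8337 in BF-D and 0.46 (adjusted p = 0.00029, all 6 0.67), and 1 fell, Klf4, at 2285, 2311 and 2173 in BF-C and 1970.1, 1683 and 1886 in BF-D and -0.23 (adjusted p = 0.047, all 6 -0.29).

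Cholesterol genes had 3 of 23 higher and 1 lower, and 21 of the 23 values were above 0. Insig1 (0.27, adjusted p = 0.019, all 6 0.15), which holds back sterol synthesis, and Msmo1 (0.24, adjusted p = 0.021, all 6 0.29), an enzyme of that synthesis, were among those that rose. Insig1 overlapped BF-C once BF-D replicate 2 was counted. At an unadjusted p under 0.05, 11 of the list were higher and 1 lower. Among 28 hypoxia and glycolysis genes 2 rose and 0 fell, Egln3 (0.39, adjusted p = 0.0062, all 6 0.41) and Vegfa (0.27, adjusted p = 0.042, all 6 0.22), and among 17 lipid synthesis and adipocyte genes 1 fell, Cebpd (-0.26, adjusted p = 0.012, all 6 -0.05), whose highest value of all was that of BF-D replicate 2.

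Stress and housekeeping lists gave few calls. Limma called 0 of 21 endoplasmic reticulum stress genes (1 higher and 4 lower unadjusted), 0 of 24 ATF4 and amino acid genes (2 and 3), 0 of 15 heat shock genes (4 and 1), 0 of 25 antioxidant genes (1 and 3), 0 of 27 lysosome genes (0 and 1), 0 of 23 cilium genes (0 and 2), 0 of 27 respiratory chain genes (0 and 0) and 0 of 9 histone genes (0 and 0). EdgeR and DESeq2 without BF-D replicate 2 also called 0 of each list, except that each tool called 1 heat shock gene higher. Of 63 cytosolic ribosomal proteins 1 rose, Rpl28 (0.23, all 6 0.47), and 0 fell. Without BF-D replicate 2, 9 of the 63 values were above 0 and 54 below, with 1 higher and 9 lower unadjusted. The median log2 difference of the list was -0.05 without BF-D replicate 2 and 0.18 with it. Of 3 receptors of the vasoactive intestinal peptide family limma, edgeR and DESeq2 called 0, with 1 higher unadjusted; Vipr2 had 73.7, 85.4 and 63.9 normalized counts in BF-C and 74.5, 54.3 and 56.6 in BF-D, a difference of -0.18 (95% interval -0.66 to 0.30).

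The largest falls among named members with a mean of at least 50 included genes with provisional names. AABR07052758.1 had 461, 309 and 441 normalized counts in BF-C and 20.2, 46.5 and 39.8 in BF-D, a log2 difference of -3.76 (standard error 0.26, limma adjusted p = 4.5e-05, all 6 -3.53), and was lower in both fits. LOC100911238 had 1005, 1107 and 994 in BF-C and 227, 399.5 and 355 in BF-D, a difference of -1.86 (standard error 0.14, limma adjusted p = 7.9e-05, all 6 -1.70). Both were lower in every BF-D library. LOC100910771 had 163, 126 and 92.4 in BF-C and 19.2, 103 and 11.5 in BF-D and LOC100911515 had 1899, 1981 and 715 in BF-C and 468, 1871 and 309 in BF-D, and in both BF-D replicate 2 lay among the BF-C libraries. Reads of such provisional genes may be shared with near-identical copies, so their values are uncertain, as are those of Hprt1, Pak2 and Hnrnpc. Of Hprt1 a second gene entry with the same symbol differed by 0.01, while the called entry had 23.7, 13.9 and 14.7 in BF-C and 69.2, 79.5 and 301 in BF-D, and the second entry of Pak2 differed by -0.01.

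Well-annotated falls were Steap4, a metalloreductase of fat and inflammation, with 189.8, 168 and 181 normalized counts in BF-C and 92.6, 87.3 and 76.5 in BF-D and a difference of -1.08 (standard error 0.15, limma adjusted p = 0.0042, all 6 -1.06), and Wfdc18, a small secreted protein, with 121, 157 and 158 in BF-C and 61.7, 50.4 and 54.5 in BF-D (limma adjusted p = 0.0044). Akr1c14, a steroid dehydrogenase, had 191, 169 and 163 in BF-C and 97.9, 82.4 and 82.7 in BF-D, a difference of -0.94 (standard error 0.15, limma adjusted p = 0.0092, all 6 -0.99). All were separate from BF-C in each library. Among the largest rises, AC107580.1 had 9.32, 85.4 and 4.92 normalized counts in BF-C and 847, 9.7 and 384 in BF-D (5.04, all 6 3.12), so that BF-D replicate 2 and BF-C overlapped. Sema6d, a semaphorin, had 71.2, 61.9 and 63.9 in BF-C and 129.8, 68.8 and 136 in BF-D (1.01, all 6 0.70). The plot of values in each library shows 24 of the genes described.

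**Figure D5:**
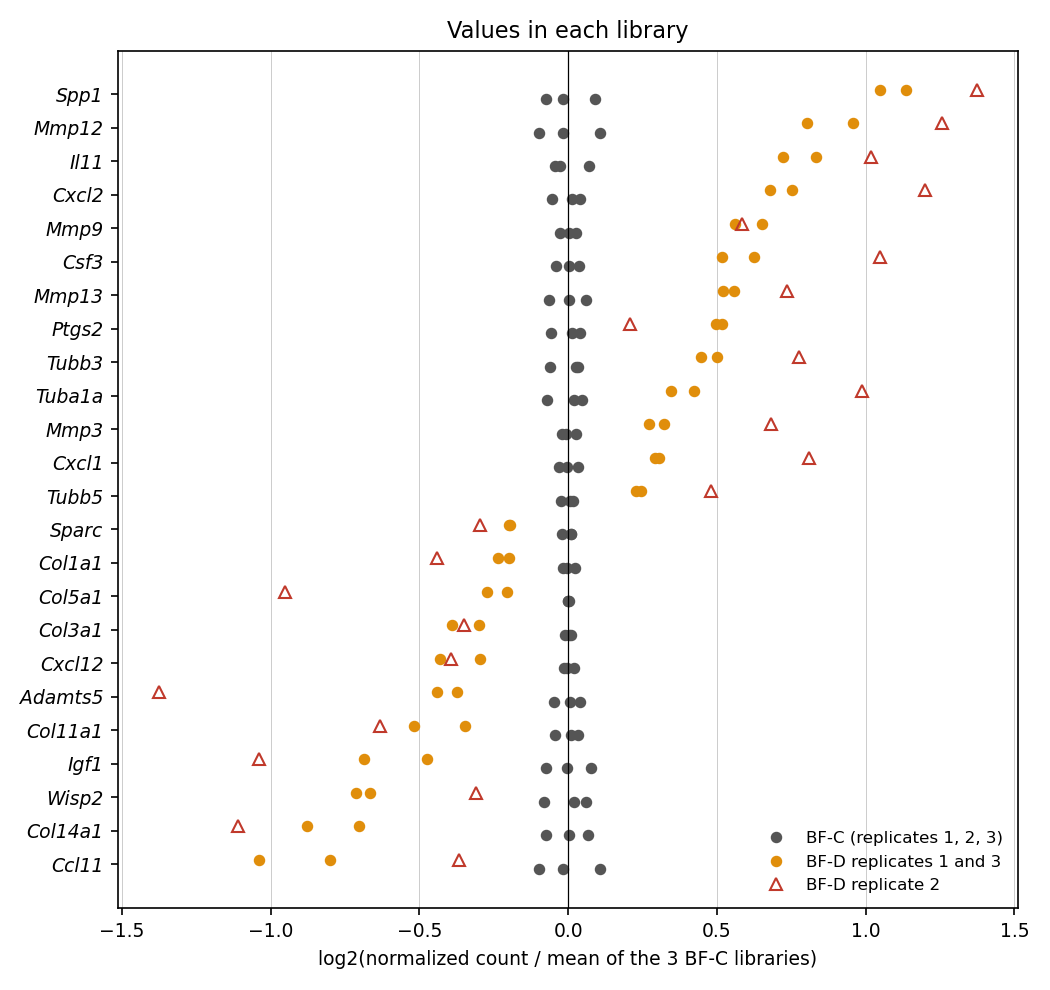
Normalized count in each library relative to the mean of the 3 BF-C libraries (log2, horizontal axis) for 24 called genes; grey points are BF-C, orange points BF-D replicates 1 and 3, and open triangles BF-D replicate 2. BF-D lies to the right of BF-C from Spp1 to Tubb5 and to the left from Sparc to Ccl11 in every library, and BF-D replicate 2 is farther out than replicates 1 and 3 in Cxcl1, Tuba1a, Adamts5 and Col5a1.

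The study also treated BMSCs with CTGF and then TGF-beta1 (BMSC-CT, 3 libraries) and kept untreated BMSCs (BMSC-C, 3 libraries), and the called members are set beside that comparison, which shares no library with this one. The tables were normalized separately, so counts are given with no test across them. Of 13480 members in both tables, limma on the 6 BMSC libraries called 19.4%, 8.06% higher and 11.4% lower in BMSC-CT. Of the 115 members higher with docetaxel, 63 (54.8%) were lower in BMSC-CT and 12 (10.4%) were higher. Of the 128 members lower with docetaxel, 35 (27.3%) were lower in BMSC-CT and 27 (21.1%) were higher.

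Called members have high levels, and among the 3001 members with a mean of at least 1000 limma called 15.9% lower and 10.7% higher in BMSC-CT. Without BMSC-CT replicate 3, a library that stood apart, it called 43.8% of members, 19.8% higher and 24.0% lower. The 115 then held 68 (59.1%) lower and 18 (15.7%) higher, and the 128 held 45 (35.2%) lower and 36 (28.1%) higher. In the fit on the 6 BMSC libraries, the log2 difference of Il11 was -9.95 in BMSC-CT against BMSC-C and 0.78 with docetaxel. For Mmp9 the values were -3.62 and 0.61, for Col1a1 2.39 and -0.22, and for Col3a1 2.99 and -0.34. Spp1 was higher in both comparisons (1.10 and 1.09). Macrophage markers took 0.904% to 1.09% of reads in BMSC-C and 1.15% to 1.43% in BMSC-CT, and their part in these counts was not tested.

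The authors' deposited table of the same comparison, which used all 6 libraries, holds 70 genes with an adjusted p under 0.05, 37 higher and 33 lower, of which 64 were among the 243. Their unadjusted DESeq2 p was under 0.05 in 853 genes. The threshold for genes entered into the authors' terms is not given in the sources used here, so the term counts need not come from the 70. In the authors' deposited table of KEGG terms, cytokine-cytokine receptor interaction listed 30 genes higher and 7 lower (adjusted p = 1.8e-07), phagosome 25 and 3 (adjusted p = 1.5e-05) and rheumatoid arthritis 16 and 2 (adjusted p = 2.2e-05). Protein digestion and absorption, a term that holds the collagens, listed 2 higher and 13 lower (adjusted p = 0.0031) in the authors' deposited table.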

How the data were processed

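RNA of 3 BF-C, 3 BF-D, 3 BMSC-C and 3 BMSC-CT rat libraries was sequenced after NEBNext Ultra preparation, per the labels' protocols. The submitters' processing notes name Bowtie 0.12.2 and the mouse build mm8, while the gene IDs are rat; how reads were assigned to genes is not given in the sources used here, and no coordinates of the files are printed. The authors deposited normalized counts (a signal of reads divided by 1 size factor per library), with log2 fold changes, p-values and gene lengths. Their term tables hold p-values and gene counts, per the file headers. A read was worth a constant in each library, and 100% of values came out as whole reads within 0.01. DESeq2 on those reads gave the authors' p within 0.01 on the log10 scale in 100% of 19330 genes.

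The main test was limma 3.58.1 in R 4.3.3 on log2(normalized count + 1) for genes with a mean of at least 1, with a trend in the variance and Benjamini-Hochberg adjustment over all genes fitted; a member was called at an adjusted p under 0.05. edgeR had been foreseen for raw counts and was an alternative, as was DESeq2, both on recovered reads (edgeR 4.0.16, DESeq2 1.42.0). Length trends were removed per library by loess with a span of 0.5. Other alternatives were scalings, pseudocounts, filters, library weights, a replicate block and leaving out each library. The fits were tested on simulated data. IDs without a symbol (745) were kept in the tests and not named. Promoters came from RefSeq. Members and gene lists were chosen with earlier results of these data known. The genes named were the largest called differences (mean at least 50), up to 4 per list with the smallest p, and the study's own genes; further list members, and the genes marked so in the text, were chosen after their values were seen. Some genes and a list are not reported here.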

Additional observations from a re-analysis of the deposited data

How the results depend on the processing

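Without BF-D replicate 2, the 243 calls (115 higher, 128 lower) became 13 (10 higher, 3 lower) with no filter on low values. With the length trend removed and a replicate block they became 181 (97 higher, 84 lower). The replicate block alone gave 178 (91 higher, 87 lower); same-numbered libraries did not deviate together (r of 0.01, 0.01 and -0.02), so the numbers are not taken as pairs. Leaving out a further library gave 0 to 163 calls, 0 to 77 higher and 0 to 86 lower. With all 6 libraries limma gave 2 (1 higher, 1 lower), 0 (0 and 0) with a mean filter of 10, with voom or with the replicate block, 3 (2 higher) with quantile scaling, 11 (7 and 4) with the length trend removed, 4 (2 and 2) with that and the replicate block, and 123 (72 and 51) with library weights, while DESeq2 gave 72 (37 and 35). Leaving out 1 library gave 0 to 243, 0 to 115 higher and 0 to 128 lower. The cause of these differences was not tested. The alternatives were run gene by gene for the 85 called genes that the naming rule chose, not for the further genes named. Of these, 84 kept their direction in every alternative run without BF-D replicate 2, and Col1a1, the gene with the highest level, differed by 0 under quantile scaling. Of the 85, 0 were called in every one, and 50 were called in all that neither left out a further library nor dropped the filter. The number of libraries limits precision: the median standard error of a member's log2 difference was 0.10 without BF-D replicate 2 and 0.17 with it.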

Other observations

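Further called members, named here after their values were seen, encode secreted proteins outside the lists. Hp, the gene of haptoglobin, had 3656, 3570.0 and 3449 normalized counts in BF-C and 2800.3, 3734 and 2354 in BF-D, a log2 difference of -0.47 (adjusted p = 0.0042, all 6 -0.29) by limma without BF-D replicate 2, with that replicate above BF-C. C6, a complement component, had 727, 661 and 698 in BF-C and 468, 486 and 451 in BF-D, a difference of -0.59 (adjusted p = 0.0017, all 6 -0.57), and Sepp1, the selenium carrier, had 1742, 1728 and 1753 in BF-C and 1210.1, 1110.3 and 1172 in BF-D, a difference of -0.55 (adjusted p = 0.00024, all 6 -0.58); both were lower in every BF-D library. Slpi, an inhibitor of leukocyte elastase, had 14314, 13004 and 14836 in BF-C and 18412, 42862 and 19432 in BF-D, a difference of 0.43 (adjusted p = 0.0017, all 6 0.82), and Apoe, the apolipoprotein, had 1490.2, 1484 and 1518 in BF-C and 2047, 2429 and 1962 in BF-D, a difference of 0.42 (adjusted p = 0.0013, all 6 0.51); both were higher in every BF-D library.

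Enzyme and transporter genes named in the same way included Odc1, the rate-limiting enzyme of polyamine synthesis, with 7558, 7210.4 and 7574 normalized counts in BF-C and 9219, 12904 and 9461 in BF-D and a difference of 0.33 (adjusted p = 0.0014, all 6 0.48). Ass1, of arginine synthesis, had 1491, 1417 and 1493 in BF-C and 2022, 2855 and 2105 in BF-D and 0.49 (adjusted p = 0.00055, all 6 0.65), and the phosphate transporter Slc20a1 had 9951, 9944 and 10532 in BF-C and 14046, 11965 and 13344 in BF-D and 0.43 (adjusted p = 0.00029, all 6 0.37). Nox1, an oxidase that makes superoxide, had 169, 160.2 and 181 in BF-C and 289, 237 and 254 in BF-D, a difference of 0.67 (adjusted p = 0.017, all 6 0.61). All 3 BF-D libraries lay above all 3 BF-C libraries for each of these.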
